A study of Mus musculus with 3 samples.

Results

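A pair of genomic regions known for clustered KRAB zinc finger genes was examined in a FAIRE-seq list of potential open-chromatin intervals from mouse embryonic stem cells. The regions were fixed by position alone in the mouse build mm9, as 62000001 to 68000000 of chromosome 13 and 174800001 to 178000000 of chromosome 2. An interval belonged to a cluster when its midpoint lay inside these limits. The chromosome 13 cluster held 1830 intervals and the chromosome 2 cluster 279, together 2109 of the 348759 intervals listed, or 0.605%.

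FAIRE, formaldehyde-assisted isolation of regulatory elements, enriches nucleosome-depleted DNA because formaldehyde fixes little protein to it. The study comprised a FAIRE sample of wild-type cells of a 129Sv-C57Bl/6 background treated for 16 h with 500 nM ICRF-193, an inhibitor of topoisomerase II catalysis, a FAIRE sample of the same cells treated with DMSO, and an input library of genomic DNA from such cells. Each FAIRE title covers replicates 1 and 2 together, so each group was 1 sample. The analysed list assigned no interval to a sample, so nothing here describes an effect of ICRF-193, there was no replicate error, and no test between groups was made. Read depth is unknown. Limits given with a density, a ratio, a share or a median cover counting error only, and treat intervals as independent.

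KRAB zinc finger proteins bind DNA through arrays of zinc fingers and recruit the corepressor KAP1 (TRIM28) through their KRAB domain. In mouse embryonic stem cells several of them direct repressive histone methylation to endogenous retroviruses. Their genes have multiplied by repeated tandem duplication, and large families of close relatives therefore stand side by side in clusters. Intervals were not assigned to genes, because no gene annotation of mm9 was used, and the zinc finger label was therefore not checked on that build. The RefSeq gene table of assembly GRCm38.p6 was read only for names and for which genes neighbour each other. In it, the largest run of neighbouring Zfp genes on chromosome 13, with at most 5 other protein-coding genes between successive Zfp genes, went from Zfp640 to Zfp273. It held 31 protein-coding genes, 24 of them with a Zfp symbol. This run also contains Rsl1, a KRAB zinc finger repressor of sex-limited liver genes. The largest run on chromosome 2 went from Zfp968 to Zfp931 and held 26 protein-coding genes, 9 with a Zfp symbol and most of the others with a Gm symbol.

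Promoters of the chromosome 13 run were less alike than those of the chromosome 2 run, where 23 of 25 had a partner in the run that was at least 90% identical. These sequences are shown as examples of the likeness between neighbouring promoters. They were not placed on mm9 and cover a small part of either cluster. The 250 bases before the annotated start of 4 genes are given 5′ to 3′ from the RefSeq promoter table of GRCm38.p6. Capitals mark the 61-base stretch shared by Rsl1 and Zfp429 of the chromosome 13 run, and a 40-base stretch shared by Zfp968 and Zfp931 of the chromosome 2 run.
Rsl1: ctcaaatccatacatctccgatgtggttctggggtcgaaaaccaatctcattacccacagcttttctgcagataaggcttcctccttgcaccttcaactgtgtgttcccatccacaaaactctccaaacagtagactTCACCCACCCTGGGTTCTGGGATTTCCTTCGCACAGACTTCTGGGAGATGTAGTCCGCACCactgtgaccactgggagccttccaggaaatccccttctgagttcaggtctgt
Zfp429: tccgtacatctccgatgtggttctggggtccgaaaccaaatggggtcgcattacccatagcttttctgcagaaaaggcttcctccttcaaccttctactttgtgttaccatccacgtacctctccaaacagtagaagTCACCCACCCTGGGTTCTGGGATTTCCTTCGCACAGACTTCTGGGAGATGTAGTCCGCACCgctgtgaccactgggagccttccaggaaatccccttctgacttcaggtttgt
Zfp968: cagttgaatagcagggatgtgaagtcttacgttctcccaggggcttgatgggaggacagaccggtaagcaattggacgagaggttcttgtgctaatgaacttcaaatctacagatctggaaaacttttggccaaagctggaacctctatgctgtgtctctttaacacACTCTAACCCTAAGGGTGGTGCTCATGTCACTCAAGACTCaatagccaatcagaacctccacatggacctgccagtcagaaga
Zfp931: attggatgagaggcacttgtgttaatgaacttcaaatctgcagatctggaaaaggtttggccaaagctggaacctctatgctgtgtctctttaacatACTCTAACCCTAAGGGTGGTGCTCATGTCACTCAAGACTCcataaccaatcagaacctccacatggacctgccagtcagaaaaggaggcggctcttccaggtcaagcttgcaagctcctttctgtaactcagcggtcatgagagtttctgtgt
The capitalised 40-base stretch of Zfp968 and Zfp931 occurred in 23 of the 25 promoters available for the chromosome 2 run, beginning between 153 and 64 bases before the start. The other two, Zfp972 and Gm14428, lacked it. On either strand, 25 promoters held it among all protein-coding genes. The capitalised 61-base stretch of Rsl1 and Zfp429 was found in 2 promoters of the table, these 2.

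By count, 10 of the 23 promoters available for the chromosome 13 run shared a stretch of 36 bases, on either strand, with the promoter of another gene. In the chromosome 2 run 23 of 25 did. The share over all 17492 protein-coding genes with a promoter was 16.6%, which includes neighbouring genes whose promoters overlap. Among 303 Zfp genes outside both runs it was 15.2%. Over whole 250-base sequences, 0 of 253 pairs of promoters in the chromosome 13 run were at least 90% identical by global alignment, with a median of 46.8%. In the chromosome 2 run 45 of 300 pairs were, with a median of 72.0%, and the most alike pair was 100% identical. The promoters of the chromosome 13 run had a median of 6 CpG dinucleotides and those of the chromosome 2 run a median of 3, against 10 over all protein-coding genes. No source used here says how reads with several matches were placed, and the part of repeated sequence in the values below was not tested.

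The clusters differed widely in how many intervals they held. The chromosome 13 cluster had 305 intervals per Mb (95% exact Poisson interval 291 to 319) and the chromosome 2 cluster 87.2 (77.3 to 98.0), a ratio of 3.50 (95% interval 3.08 to 3.98). The median of 2425 autosomal windows of 1 Mb was 92 intervals, and the central 80% of windows ran between 15 and 335. The chromosome 13 cluster thus stood at 3.32 times the median window, above 87.7% of windows, and the chromosome 2 cluster at 0.95 times, above 48.5%. Set against the mean density of the autosomes, 143 per Mb, the values were 2.14 and 0.61 times. Against the median of windows as long as each cluster, they were 2.65 and 0.75 times. Being under the median window did not hold for the chromosome 2 cluster when intervals were filtered or joined: it stood at 1.13 times with intervals at or above the list's median score and at 1.05 times with neighbours within 500 bp joined. Intervals covered 3.91% of the chromosome 13 cluster (235 kb) and 1.51% of the chromosome 2 cluster (48.2 kb), against 0.997% in the median window and 1.64% over the whole span of the 19 autosomes. In coverage the chromosome 13 cluster exceeded 91.3% of windows and the chromosome 2 cluster 61.8%. Coverage was 3.92 and 1.51 times the median 1 Mb window, and 3.07 and 1.22 times the median window as long as each cluster.

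The order of the clusters was turned round in the make-up of the intervals. The score is the authors' own value, on a scale that none of the sources states, and serves here only to rank intervals within the list. High-score intervals are the top 10% of the whole list, with a score of at least 0.0237. They made up 10.5% of the intervals of the chromosome 13 cluster (193 intervals, 95% exact binomial interval 9.18 to 12.0%) and 26.2% of those of the chromosome 2 cluster (73 intervals, 21.1 to 31.7%), against 9.94% on the autosomes. The value of the chromosome 2 cluster exceeded 99.1% of the 2315 autosomal windows that held at least 10 intervals. That of the chromosome 13 cluster exceeded 60.3%.

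Width and score told the same difference. The median width was 45.5 bp in the chromosome 13 cluster (95% interval of the median 37 to 55 bp), 104 bp in the chromosome 2 cluster (72 to 144 bp) and 41 bp on the autosomes (40 to 41 bp). The median score was 0.0138 in the chromosome 13 cluster (0.0136 to 0.0139) and 0.0149 in the chromosome 2 cluster (0.0143 to 0.0159), against 0.0136 on the autosomes. Among intervals of at least 200 bp alone, the median of the chromosome 13 cluster was under the autosomal one, at 0.0227 against 0.0235. Wide intervals, of at least 200 bp, were 22.7% of those in the chromosome 13 cluster and 36.2% of those in the chromosome 2 cluster, against 20% on the autosomes. Intervals no wider than 10 bp were 30.6% of the chromosome 13 cluster and 25.1% of the chromosome 2 cluster, against 30.9% on the autosomes. Score and width rise together in output of F-Seq, the program named for this list, so these are not separate lines of evidence.

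**Figure D1:**
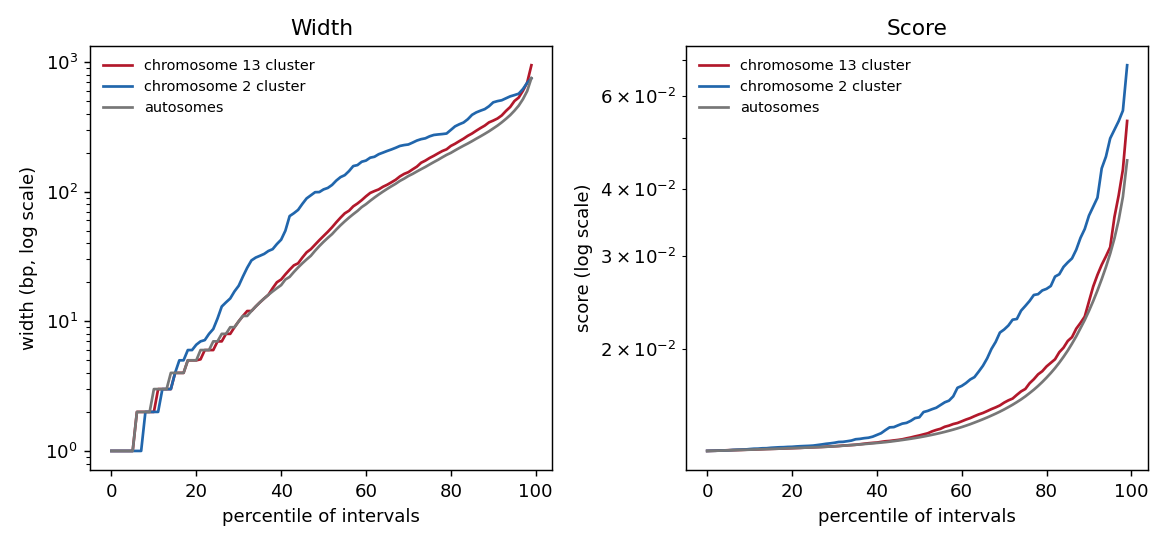
Width in bp (left) and score (right), both on log axes, at each percentile of the intervals of the chromosome 13 cluster, the chromosome 2 cluster and the 19 autosomes. The curve of the chromosome 13 cluster runs close to that of the autosomes, and the curve of the chromosome 2 cluster lies above both from the 16th to the 97th percentile for width and from the 6th percentile upwards for score, with medians of 45.5, 104 and 41 bp for width.

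Taken as a whole, the chromosome 2 cluster was short of low-score intervals, not of high-score ones. This did not hold along its whole length, as the values of its parts, given below, show. Low-score intervals, those under the list's median score of 0.0137, numbered 147 per Mb in the chromosome 13 cluster and 34.1 per Mb in the chromosome 2 cluster, against 71.6 per Mb on the autosomes. These are 2.05 and 0.48 times the autosomal density. High-score intervals numbered 32.2 per Mb (27.8 to 37.0) in the chromosome 13 cluster and 22.8 per Mb (17.9 to 28.7) in the chromosome 2 cluster, against 14.2 on the autosomes, or 2.27 and 1.61 times. In the sparse stretch of the chromosome 2 cluster, 175000001 to 176800000, low-score intervals numbered 7.22 per Mb and high-score ones 11.7 per Mb. In the 0.2 Mb before it the values were 100 and 50 per Mb, and in the 1.2 Mb after it 63.3 and 35. The shortage of low-score intervals thus lay mostly in the sparse stretch, and the surplus of high-score ones outside it. Between the clusters the density ratio was 4.31 (3.53 to 5.30) for low-score and 1.41 (1.07 to 1.87) for high-score intervals. These limits are too narrow where neighbouring intervals are fragments of the same site. They also leave out uneven spread along the clusters. Over bins of 100 kb the variance of the interval count was 24.4 times its mean in the chromosome 13 cluster and 8.52 times in the chromosome 2 cluster. Gaps of 20 bp or less were 34.9% of those in the chromosome 13 cluster and 29.9% of those in the chromosome 2 cluster, against 34.1% on the autosomes. With neighbours within 500 bp joined, regions with a high-score interval numbered 28.0 and 22.2 per Mb, a ratio of 1.26, for which no limits were computed.

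Joining neighbours within 500 bp into regions showed how the intervals were grouped. The chromosome 13 cluster held 730 such regions with 2.51 intervals each on average, and the chromosome 2 cluster 165 with 1.69 each, against 2.17 on the autosomes. Regions made of 1 interval were 46.4% of those of the chromosome 13 cluster and 64.8% of those of the chromosome 2 cluster, against 51.3% on the autosomes. A high-score interval was present in 23.0% and 43.0% of the regions of these clusters, against 19.6% on the autosomes. Counted over intervals, 339 of the 1830 in the chromosome 13 cluster and 107 of the 279 in the chromosome 2 cluster stood alone, against 81375 of the 344785 on the autosomes.

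Along the chromosome 13 cluster the windows of 1 Mb held 215, 252, 153, 375 and 660 intervals from the lower limit upwards, and the sixth stood at 1.90 times the median window. The fifth, 66000001 to 67000000, exceeded 99.1% of autosomal windows in count and had 9.46% of its bases covered. The sixth, 67000001 to 68000000, was of another kind: its high-score share was 19.4% (13.8 to 26.1%), above 95.8% of windows, and its median width was 89 bp. In the other 5 windows the high-score share was between 6.67% and 12.4%, and the median width between 30 and 57 bp.

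Along the chromosome 2 cluster the first 0.2 Mb held 49 intervals, or 245 per Mb, and the 3 full windows after it held 37, 48 and 145. The windows 175000001 to 176000000 and 176000001 to 177000000 were thus at 0.40 and 0.52 times the median window. Their high-score shares were 35.1% (20.2 to 52.5%) and 33.3% (20.4 to 48.4%), and the third full window had 23.4% (16.8 to 31.2%). The first 0.2 Mb had 20.4% (10.2 to 34.3%). A share of at least 20%, a value chosen after the shares were seen, was reached in 0 of the 6 windows of the chromosome 13 cluster and in all 3 full windows of the chromosome 2 cluster, against 3.97% of autosomal windows with at least 10 intervals.

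The high-score share was also set against the number of intervals in a window. Across 2315 autosomal windows, those of the clusters included, Spearman's rho between the count and the high-score share was 0.0065. This is a description, since neighbouring windows are not independent and all come from 1 list. Among the 420 autosomal windows with 30 to 60 intervals, the median high-score share was 10.2%, the 90th percentile 17.7% and the highest value 35.1%, which is that of the window 175000001 to 176000000 of chromosome 2. A share of at least 20% was reached in 6.67% of these 420 windows, against 3.97% of all windows with at least 10 intervals.

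**Figure D2:**
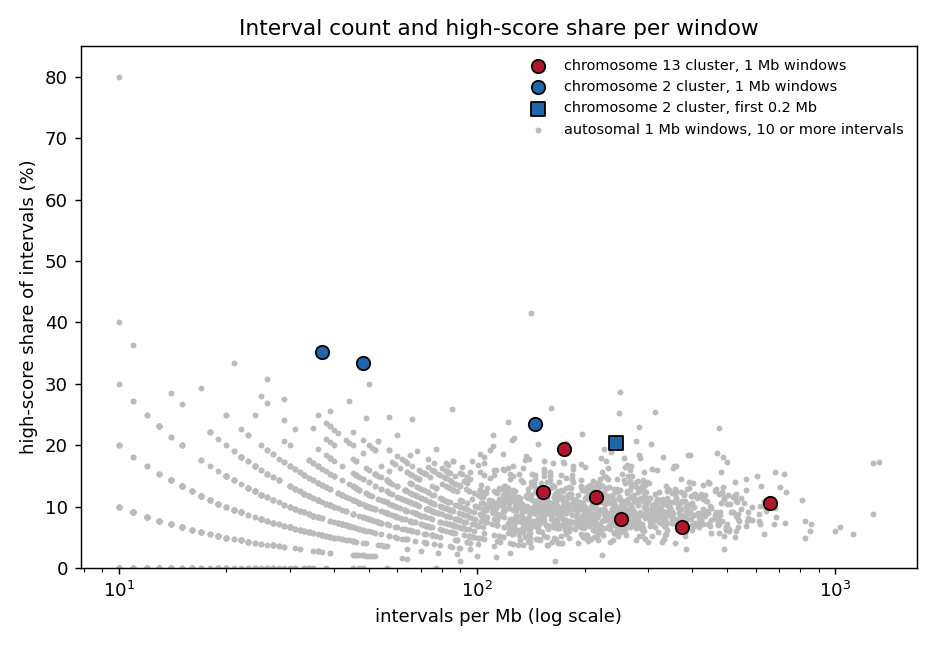
High-score share of intervals (%) against intervals per Mb (log axis) for the windows of the chromosome 13 cluster (red circles), those of the chromosome 2 cluster (blue circles, with a square for its first 0.2 Mb) and all autosomal 1 Mb windows with at least 10 intervals (grey points, cluster windows included). The sparse windows of the chromosome 2 cluster, with 37 and 48 intervals, sit at 35.1% and 33.3%, and 5 of the 6 chromosome 13 windows lie within the bulk at 6.67% to 12.4%.

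At finer scale, a stretch of 1.6 Mb carried most of the chromosome 13 cluster. From 65400001 to 67000000, limits chosen after the counts were seen, it held 1013 intervals, 55.4% of the cluster's intervals and 46.6% of its high-score intervals. Its density was 633 per Mb, against 189 per Mb in the 3.4 Mb before it. Within it 36.6% of joined regions were solitary intervals, against 55.7% before and 51.7% after it. High-score intervals were wider here, with a median of 522 bp, than before it (378 bp), after it (349.5 bp) or on the autosomes (371 bp). The 3 densest bins of 100 kb in the cluster lay in this stretch, at 66500001 to 66600000, 66700001 to 66800000 and 66000001 to 66100000. They held 122, 104 and 91 intervals, which covered 19.7%, 16.0% and 14.0% of their bases.

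No stretch of the chromosome 2 cluster was comparably dense, though its intervals were also unevenly spread. Its 3 densest bins held 35, 26 and 23 intervals, at 177100001 to 177200000, 174800001 to 174900000 and 174900001 to 175000000. Its sparse stretch from 175000001 to 176800000, also bounded after the counts were seen, held 58 intervals, or 32.2 per Mb, with 21 of them high-score. The 1.2 Mb after it held 143 intervals per Mb, of which 24.4% were high-score. In the sparse stretch the median width was 184 bp and 89.4% of the 47 joined regions were a single interval. Only 13 of its 58 intervals, 22.4%, were low-score, against 50.2% on the autosomes. Per Mb the sparse stretch held 7.22 low-score intervals, against 71.6 on the autosomes. Its high-score density was 11.7 per Mb (7.22 to 17.8), against 14.2 on the autosomes. Its high-score intervals were narrow for their class, with a median of 276 bp (interquartile range 243 to 362 bp), against 371 bp (289 to 519 bp) on the autosomes.

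High-score intervals were spread through nearly all of both clusters. At least 1 was found in 55 of the 60 bins of 100 kb in the chromosome 13 cluster and in 30 of the 32 bins of the chromosome 2 cluster, against 49.4% of the 24161 autosomal bins. Each cluster had 1 bin without an interval, against 15.4% of autosomal bins. The median bin held 22 intervals in the chromosome 13 cluster and 5.5 in the chromosome 2 cluster, against 6 on the autosomes.

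**Figure D3:**
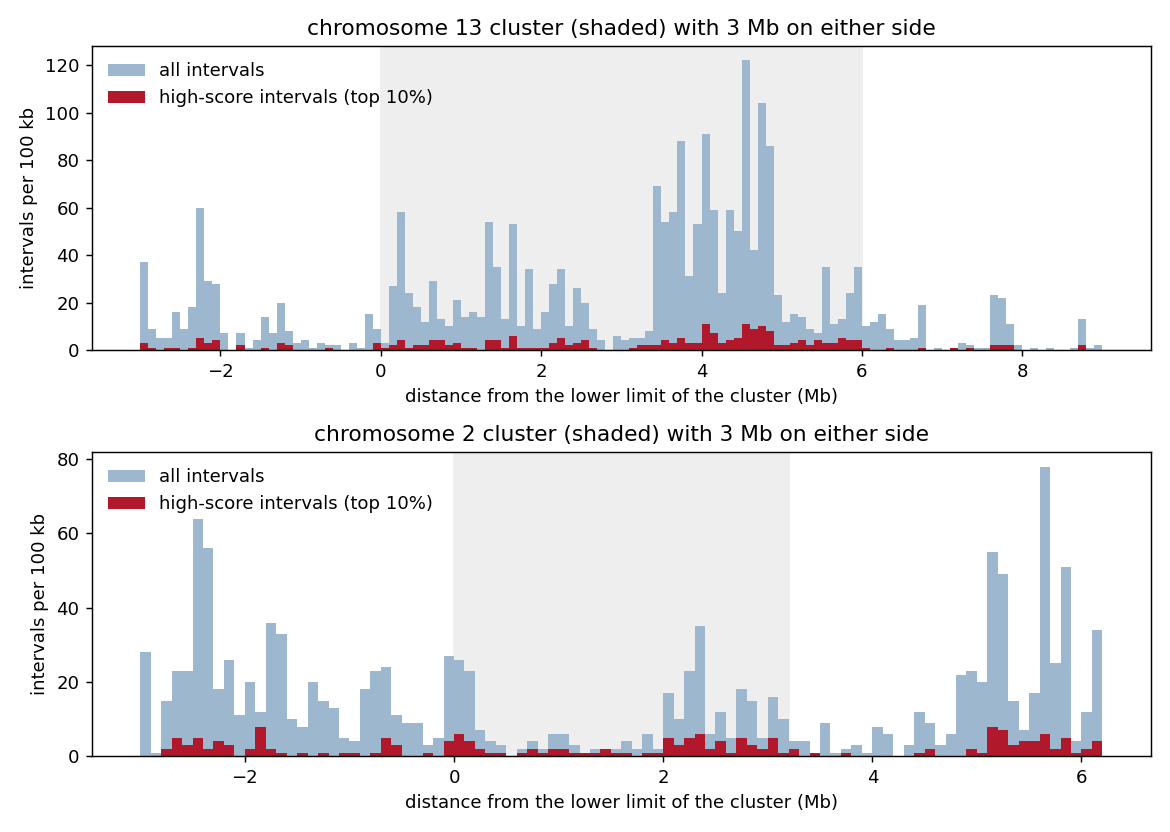
Intervals per 100 kb along the chromosome 13 cluster (top) and the chromosome 2 cluster (bottom), shaded, with 3 Mb on either side; the x axis is the distance from the lower limit of the cluster in Mb. Blue bars are all intervals and red bars the high-score ones. The chromosome 13 cluster peaks at 122 intervals in its densest bin, and the chromosome 2 cluster is low for most of its length while 30 of its 32 bins hold a high-score interval.

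Joined regions of the sparse stretch recurred at certain distances. Among its 47 joined regions, 111 pairs lay between 10 and 110 kb apart. When these distances were sorted into 500 bins of 200 bp, 428 bins were empty, yet 8 pairs fell between 34.0 and 34.2 kb and 7 pairs between 97.4 and 97.6 kb. The next fullest bins, at 22.8 to 23.0, 63.2 to 63.4 and 63.4 to 63.6 kb, held 4 pairs each. The bins from 63.2 to 63.4 and from 63.4 to 63.6 kb adjoin, so their shared edge may divide a single group of pairs. A longer distance can also be the sum of shorter ones, so the full bins are not independent of each other. The 8 pairs were 34050 to 34106 bp apart and involved 16 different regions. The first pair was 175163712 to 175163919 with 175197804 to 175198012, with widths of 208 and 209 bp and scores of 0.0212 and 0.0245. The second, 175261299 to 175261529 with 175295411 to 175295516, was less alike, with widths of 231 and 106 bp and scores of 0.0257 and 0.0157. The sixth was 176097184 to 176097403 with 176131263 to 176131491, with widths of 220 and 229 bp and scores of 0.0259 and 0.0235. In the seventh, 176232465 to 176232742 with 176266596 to 176266824, the widths were 278 and 229 bp and the scores both 0.0275.

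So full a bin was rare along the autosomes. In 191 other autosomal stretches of 1.8 Mb with 35 to 60 joined regions, the fullest bin held a median of 3 pairs and at most 9, and 1 of the 191 reached 8. The fullest bin of the chromosome 2 stretch held 7.21% of its distances, against 0.970% of 928 distances in that stretch. The highest such share among the 191 was 4.46%, and the median 1.66%. These shares rest on unlike totals, since the chromosome 2 stretch had 111 distances and the 191 stretches a median of 190. A share in the fullest bin tends to be larger where distances are fewer. The distances, the bins and the stretch were chosen after the positions had been seen. Whether the recurring distances follow duplicated units of the reference sequence was not tested, because an mm9 genome sequence was not used here.

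**Figure D4:**
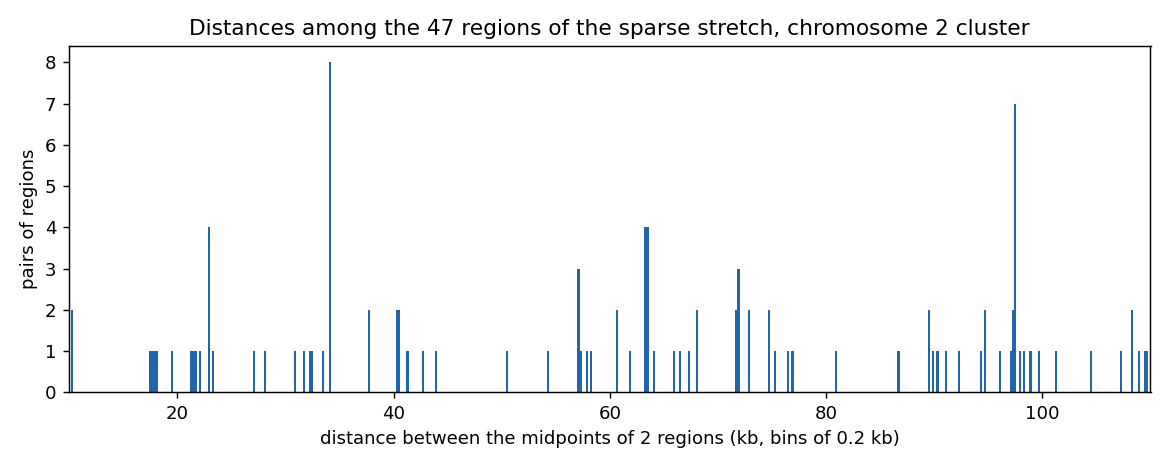
Number of pairs of joined regions (y axis) by the distance between their midpoints (x axis, kb, bins of 0.2 kb) in the sparse stretch of the chromosome 2 cluster, 175000001 to 176800000. The bin from 34.0 to 34.2 kb holds 8 pairs and the bin from 97.4 to 97.6 kb holds 7, and most of the other bins are empty.

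The 5 strongest of the 1830 intervals of the chromosome 13 cluster scored higher than the 5 strongest of the 279 of the chromosome 2 cluster. The 99th percentile of the score, which allows for the unlike counts, had the other order. It was 0.0538 in the chromosome 13 cluster and 0.0685 in the chromosome 2 cluster, against 0.0453 on the autosomes. On chromosome 13 the 5 highest were 66091603 to 66092731 (score 0.140), 66798813 to 66799891 (0.111), 66811410 to 66812990 (0.104), 66541749 to 66542753 (0.1004) and 66816098 to 66817377 (0.0910). All 5 lay in the dense stretch and were between 1005 and 1581 bp wide. The first was 10.9 times the lowest score of the list and ranked 202 among the 344785 autosomal intervals. On chromosome 2 the 5 highest were 176615380 to 176615916 (score 0.0741), 175001268 to 175001883 (0.0708), 176858291 to 176859094 (0.0704), 177660217 to 177660912 (0.0679) and 177282545 to 177283042 (0.0576). Their widths were 498 to 804 bp, and the first ranked 464 among autosomal intervals.

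The widest intervals were often not the strongest. On chromosome 13 the widest was the third-ranked by score, at 1581 bp, followed by 64080768 to 64082324 (1557 bp), 62611708 to 62613021 (1314 bp), 66514936 to 66516232 (1297 bp) and the fifth-ranked by score (1280 bp). The interval of 1557 bp scored 0.0289, 2.24 times the lowest score of the list. On chromosome 2 the widest was 177105531 to 177106623 (1093 bp), with a score of 0.0246. After it came the third-ranked by score (804 bp), 176864317 to 176865075 (759 bp), 174893162 to 174893905 (744 bp) and 174902891 to 174903619 (729 bp). No interval of either cluster approached the extremes of the list, whose highest autosomal score was 2049 and widest autosomal interval 38644 bp.

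The median gap between neighbouring intervals was 229 bp in the chromosome 13 cluster and 1464 bp in the chromosome 2 cluster, against 332 bp on the autosomes. In the sparse stretch of chromosome 2 it was 32116 bp. The 3 longest gaps in the chromosome 13 cluster were 64764935 to 64926273 (161 kb), 65016082 to 65106920 (90.8 kb) and 64561833 to 64649158 (87.3 kb), all before the dense stretch. Those of the chromosome 2 cluster were 175987669 to 176097183 (110 kb), 175295517 to 175404882 (109 kb) and 177385018 to 177489557 (105 kb). Whether reads could be placed there was not tested.

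Averaged over 3 Mb, the flanks of the clusters differed from them in opposite ways. The chromosome 13 cluster, at 305 intervals per Mb, lay between 3 Mb with 109 per Mb before it and 3 Mb with 54.7 per Mb after it. The chromosome 2 cluster, at 87.2 per Mb, lay between 190 per Mb before it and 161 per Mb after it. The flank after it was uneven, and its low density did not end at the upper limit. From 3.2 Mb to 4.8 Mb past the lower limit of the cluster, no bin of 100 kb held more than 12 intervals. Farther out, the fullest bin held 78. The high-score share of the chromosome 13 cluster was 10.5%, against 9.48% before and 7.93% after it. That of the chromosome 2 cluster was 26.2%, against 9.65% before and 11.6% after it.

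At the limits, the nearest intervals inside the chromosome 13 cluster scored 0.0400 at its lower limit and 0.0131 at its upper one, and those just outside scored 0.0168 and 0.0129. For the chromosome 2 cluster the values inside were 0.0200 and 0.0140, and those outside 0.0130 and 0.0222.

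Both clusters were far sparser than a further region with duplicated zinc finger genes, 145000001 to 147000000 of chromosome 4. That region held the fullest of all autosomal windows, with 1323 intervals, so it is an extreme of the list and not a typical cluster. Densities were 305 intervals per Mb in the chromosome 13 cluster and 87.2 in the chromosome 2 cluster, against 1302 in the chromosome 4 region, where 33.3% of bases were covered. The high-score shares of 10.5% and 26.2% in these clusters lay on either side of the 17.2% (15.8 to 18.8%) of the chromosome 4 region. Solitary intervals were 46.4% of the joined regions of the chromosome 13 cluster and 64.8% of those of the chromosome 2 cluster, against 26.8% in the chromosome 4 region.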

How the data were processed

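FAIRE-seq of 1 ICRF-193 sample, 1 DMSO sample and 1 input library was represented by 1 list of intervals for the whole series. Reads were aligned with Bowtie (no version given) to mm9, per the submitters' processing notes, and F-Seq appears in the name of the list, a program that reports stretches where a smoothed read density passes a threshold. No source used here gives its settings, the read filters, the read length or the samples behind the list. There are 5 columns and no header. The score is the authors' deposited value for each interval, used only to rank and describe intervals. Starts count from 0 in the list and are printed counted from 1.

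Values were computed with scipy 1.17.1, numpy 2.4.6 and pandas 2.3.3 in Python 3.11.15. Intervals were assigned to clusters, windows and bins by midpoint, and coverage is the summed width of the intervals so assigned. Autosomal windows of 1 Mb ran from the first to the last interval of each of the 19 autosomes. Window values of width, score and high-score share used windows of at least 10 intervals. Intervals for medians are order-statistic intervals. The density fold and the high-score share were checked on simulated intervals placed uniformly, unlike those of the list. The joining was checked on a small made-up example. The distance and promoter comparisons were not checked in this way. Promoters are the first listed per gene in the RefSeq table, and 36 bases is a setting, not the read length. The regions named were every 1 Mb window, the 3 densest bins, the 5 highest and 5 widest intervals, the 3 longest gaps and the intervals nearest each limit. The clusters, lists and alternatives were chosen with earlier results of these data known. The comparison of ICRF-193 with DMSO was not made, since the list does not separate them.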

Additional observations from a re-analysis of the deposited data

How the results depend on the processing

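Across 15 results, 67 of 89 alternative values stayed within 1.5 times of the reported count or ratio, or inside its 95% interval, 18 moved further and 4 changed direction. Those 4 are counts of the chromosome 2 cluster, which lay under the median window in the list, at 0.95 times, and above it at 1.13 times with intervals at or above the median score, 1.05 times with neighbours joined within 500 bp, 1.75 times with intervals of at least 200 bp and 2.53 times in the top 10% by score. In the top 10% by score its coverage was 2.65 times the median window, against 1.51 times in the list, and the ratio of chromosome 13 to chromosome 2 was 1.41 in count and 1.72 in coverage, against 3.50 and 2.60. With intervals of at least 200 bp only, the ratio in count was 2.19, and the median scores were 0.0227 on chromosome 13 and 0.0274 on chromosome 2, against 0.0235 on the autosomes, so the chromosome 13 median was under the autosomal one, whereas it was above it in the list (0.0138 against 0.0136). Joining within 500 bp gave median widths of 198 bp on chromosome 13 and 237 bp on chromosome 2 (ratio 0.84), against 166 bp on the autosomes. Leaving out intervals of 10 bp or less gave median widths of 115 and 189 bp (autosomes 107 bp), median scores of 0.0152 and 0.0176 (autosomes 0.0148) and high-score shares of 15.2% and 34.9% (autosomes 14.4%) on chromosomes 13 and 2. With the top 5% as high-score the shares were 5.79% and 13.6%, against 4.97% on the autosomes. Filters on score and width shift these values by construction. The pairs in the fullest bin, at whatever distance it lay, numbered 7 in bins of 100 bp and 9 in bins of 400 bp. They numbered 3 with only the regions that held a high-score interval. These alternatives were chosen after seeing the data. The fullest bin of 400 bp was not the one holding 34.0 to 34.2 kb. It joined the 200 bp bins centred on 97.3 and 97.5 kb, which held 2 and 7 pairs. No replicate could be left out. No paired analysis was possible because the list does not separate samples. Read depth is unknown, so an absent interval may be one that too few reads covered.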
